A study of Mus musculus with 33 samples.

Results

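The 9 genes described here encode the inhibin and activin system of the ovary: the inhibin subunits Inha, Inhba and Inhbb, the binding proteins Fst and Fstl3, the activin receptors Acvr2a, Acvr2b and Acvr1b, and the co-receptor Tgfbr3. They were taken by symbol, through the Ensembl identifier, from a count table of 54347 gene identifiers. Each of the 9 symbols matched 1 row, and all 9 passed the filter on low counts in each experiment, the lowest count of any of them in any library being 34 (Fstl3). Levels are given as CPM, counts relative to the scaled total of the library, and as CPM per kb of exon where genes are compared with each other.

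The libraries were made from polyadenylated RNA of mouse ovary, 33 in all, in 9 groups and 3 experiments, and served to find ovarian transcripts that depend on follicle-stimulating hormone (FSH) or on the stage of the estrous cycle. Experiment 1 held 3 libraries each of the genotypes WT, Fshb(+/-) and Fshb(-/-), where Fshb encodes the hormone-specific subunit of FSH. Experiment 2 held 4 libraries of Fshb(-/-) and 4 of Fshb(-/-) HFSHB, which by its label carries a human FSHB transgene in addition to the Fshb deletion. This group is named the rescue below. The promoter of that transgene is not given in the sources used here. Experiment 3 held WT ovaries at stage DE (4 libraries), PE (4) and E (4), abbreviations commonly used for diestrus, proestrus and estrus, and 4 libraries of a group whose stage label reads KO (anestrus). The genotype label of that group reads WT as well, so its genotype rests on the stage label and the title. All groups of experiment 2 share the Fshb deletion by label. Titles of experiments 1 and 2 carry the tag NS, while those of the staged libraries carry E, DE or PE. The titles thus give no cycle stage for the WT and Fshb(+/-) libraries of experiment 1 or for the rescue. The sources used here do not give age or strain, and nothing says that libraries of 1 group came from separate animals, so p-values measure the spread between these libraries. Fold changes were tested within an experiment, because the libraries of experiments 1 and 2 and those of experiment 3 were made in different ways.

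Inhibins are dimers of the alpha subunit with 1 of the beta subunits, and activins are dimers of the beta subunits alone. Inhibin made by granulosa cells, the cells that surround the oocyte and respond to FSH, travels to the pituitary and lowers FSH release, while activin raises it and also acts within the follicle. Activin binds a type II receptor kinase, which recruits and activates the type I receptor Acvr1b, and the signal passes to SMAD proteins. Follistatin (Fst) and follistatin-like 3 (Fstl3) bind activin and keep it from its receptors, and betaglycan (Tgfbr3) helps inhibin to occupy the type II receptors in place of activin.

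Total counts ran from 13.6 M to 16.9 M per library in experiment 1, from 19.6 M to 23.7 M in experiment 2 and from 10.1 M to 15.9 M in experiment 3. Fshb itself went against the labels. Its counts in experiment 1 were 1, 1 and 0 for WT, 43, 60 and 106 for Fshb(+/-), and 68, 79 and 82 for Fshb(-/-). In experiment 2 they were 119 to 184 in Fshb(-/-) and 221 to 431 in the rescue. In experiment 3 they were 90 to 114 in KO (anestrus). In replicate order they were 86, 70, 198 and 60 in DE, 0, 0, 51 and 26 in PE, and 50, 170, 0 and 60 in E. The deleted part of the gene is not given in the sources used here, so this count neither checks nor replaces a genotype, and group names below are those of the labels. Summed granulosa markers (14 genes, all detected in every group) were at 5446 to 6034 CPM in Fshb(-/-), 5169 to 5367 CPM in WT and 3883 to 4300.1 CPM in Fshb(+/-) of experiment 1, the last below both other groups. They were at 4832 to 5108 CPM in Fshb(-/-) of experiment 2 and 4940.5 to 5708 CPM in the rescue, which overlapped. In KO (anestrus) they were at 4583 to 5312 CPM, above all of PE (2623 to 4529 CPM), all of E (3840.2 to 4475 CPM) and 3 of the 4 DE libraries (2434 to 4144 CPM), and DE replicate 3 had 5698 CPM. Amh, a defining granulosa marker, was higher in the libraries labelled KO. It was at 926 to 1000.3 CPM against 206 to 337 CPM in WT of experiment 1. In experiment 2 it was at 399 to 554 against 119 to 237 CPM in the rescue. In experiment 3 it was at 309 to 453 CPM in KO (anestrus) against 47.1 to 162 CPM over the stages. Fshr, another defining granulosa marker, overlapped in experiment 1, at 38.7 to 55.9 CPM in Fshb(-/-) against 22.8 to 45.2 CPM in WT. It overlapped in experiment 2 as well, at 35.1 to 41.7 CPM in Fshb(-/-) against 22.5 to 48.1 CPM in the rescue. In KO (anestrus) it was at 43.2 to 47.5 CPM, above the 7.74 to 42.1 CPM of the stages. Summed luteal markers (10 genes) were lower in the libraries labelled KO, at 4148 to 4967 CPM against 7252 to 19065 CPM in WT of experiment 1. In experiment 2 they were at 4203 to 5238 against 10326 to 28852 CPM in the rescue. In experiment 3 they were at 3285 to 4301 CPM in KO (anestrus) against 4626 to 23493 CPM over the stages. Summed oocyte markers (11 genes) were higher, at 664 to 824 against 346 to 425 CPM, 685 to 1064 against 319.8 to 469 CPM, and 893 to 1064 against 130 to 572 CPM in the same order. Fshb(+/-) had 13223 to 26264 CPM of luteal and 235 to 357 CPM of oocyte markers, both overlapping with WT. Summed theca and interstitial markers (8 genes) were at 4332 to 4859 CPM in Fshb(-/-), 3225 to 4288 CPM in WT and 2324 to 3102 CPM in Fshb(+/-) of experiment 1, without overlap. The defining luteal marker Ptgfr was at 2.79 to 7.68 CPM in the libraries labelled Fshb(-/-) of experiment 1. In WT it was at 7.30, 548 and 559 CPM. Calls among the 14 granulosa markers went both ways. In Fshb(-/-) minus WT 5 were higher and 2 lower, where 4.53% and 3.34% of all genes were. In the rescue minus Fshb(-/-) 5 were higher and 6 lower (15.8% and 16.2% of all genes). Against KO (anestrus) 2 were higher and 5 lower in DE (13.5% and 11.6%). In PE they were 2 and 5 (17.5% and 16.3%), and in E 2 and 3 (8.98% and 8.98%). In whole ovary, fewer cells of a type and less RNA per cell cannot be told apart, and the part of cell makeup in the results below was not tested.

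Oviduct epithelium markers set some libraries apart. Their sum (9 genes) was 3326 to 7625 CPM in 8 of the 12 staged libraries, namely DE replicates 1, 2 and 4, all 4 of PE and E replicate 3, and 17.4 to 28.9 CPM in DE replicate 3 and E replicates 1, 2 and 4. In KO (anestrus) it was 51.3 to 88.7 CPM. In experiment 1 the sum was 1549 CPM in Fshb(+/-) replicate 3 and 20.4 to 70.6 CPM in the other 8 libraries. In experiment 2 it was 599.7 CPM in rescue replicate 2, 437 and 179 CPM in Fshb(-/-) replicates 3 and 4, and 21.7 to 46.8 CPM in the other 5. For the staged libraries, member calls that began or ended under the split are given beside each gene.

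The beta subunit genes Inhba and Inhbb carried the largest changes, so the 250 bases before their annotated starts are shown, from RefSeq on GRCm38.p6, written 5′ to 3′ on the strand of the gene. Inhba (ENSMUSG00000041324.14) lies at chr13:16011851-16031621 on the plus strand, with its window at chr13:16011601-16011850. Inhbb (ENSMUSG00000037035.5) lies at chr1:119415465-119422248 on the minus strand, with its window at chr1:119422249-119422498. Capitals mark a TATA element (TATAAA) in Inhba, at -91 to -86 counted back from the start, and a GC box (GGGCGG on the opposite strand) in Inhbb, at -122 to -117.
Inhba: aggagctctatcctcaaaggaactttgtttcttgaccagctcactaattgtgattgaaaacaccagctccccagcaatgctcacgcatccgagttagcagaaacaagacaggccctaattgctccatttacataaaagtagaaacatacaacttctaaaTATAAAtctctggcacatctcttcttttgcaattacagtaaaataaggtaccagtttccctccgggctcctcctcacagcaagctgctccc
Inhbb: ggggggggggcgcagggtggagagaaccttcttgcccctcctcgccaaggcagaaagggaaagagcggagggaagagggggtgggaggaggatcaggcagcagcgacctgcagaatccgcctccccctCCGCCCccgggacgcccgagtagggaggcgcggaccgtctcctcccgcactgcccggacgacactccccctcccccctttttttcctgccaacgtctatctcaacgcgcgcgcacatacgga

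The windows differ in base composition, with 43.2% G and C in Inhba and 68% in Inhbb against a median of 52.4% over 32851 RefSeq promoter windows of the same length. On either strand, TATAAA was in 12.4% of those windows and GGGCGG in 32.7%, and these 2 motifs were added to the search after the sequences had been seen. Neither window held a cAMP response element (TGACGTCA, in 1.55% of windows), an SF-1 element (CAAGGTCA, 1.33%), a forkhead site (TGTTTAC, 3.17%), a SMAD palindrome (GTCTAGAC, 0.167%), an AP-1 site (TGACTCA, 4.46%), a GATA core (AGATAA, 9.99%) or an E-box (CACGTG, 6.02%). These are matches of letters in a fixed window and say nothing on binding.

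Inhba was the most variable of the 9 genes, with a 303-fold range over the 33 libraries. In experiment 1 it stood at 668, 1181 and 497 CPM in the libraries labelled WT, at 325, 498 and 364 CPM in Fshb(+/-), and at 41.4, 30.4 and 37.4 CPM in Fshb(-/-). Every Fshb(-/-) library was far below every other library of the experiment. The mean fell from 782 ± 356 (SD, n = 3) to 36.4 ± 5.55 CPM (SD, n = 3), a log2 fold change of -4.42 ± 0.35 (SE, adjusted p = 0.00075, edgeR quasi-likelihood test with Benjamini-Hochberg adjustment).

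In experiment 2 the levels of Inhba were 19.1, 6.67, 10.4 and 8.95 CPM in the libraries labelled Fshb(-/-) and 1152, 1348, 873 and 1150.3 CPM in the rescue. No library lay between the groups, and the fold change was 101-fold, or 6.65 ± 0.38 on the log2 scale (SE, edgeR adjusted p = 3.5e-05, n = 4 each). In experiment 3 Inhba was at 10.4, 11.1, 7.67 and 27.1 CPM in KO (anestrus), and the lowest of the 12 staged libraries had 142 CPM (E replicate 1). The fold change against KO (anestrus) was 42.2 in DE (log2 5.40 ± 0.85, SE, edgeR adjusted p = 0.00096), 57.0 in PE (5.83 ± 0.87, adjusted p = 0.00054) and 21.9 in E (4.45 ± 0.82, adjusted p = 0.0024). These 3 contrasts share the KO (anestrus) libraries. Over all alternative fits, including those with only the oviduct-poor libraries of DE and E, the adjusted p of Inhba in DE reached at most 0.026.

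Within the stages Inhba spread widely. It was 348, 366, 1056 and 596 CPM in DE, 2017, 224, 799.5 and 155 CPM in PE, and 142, 557, 274 and 255 CPM in E. The 3 stages overlapped, with the highest and the second lowest values of all staged libraries both in PE. E minus PE was -1.38 ± 0.71 on the log2 scale (edgeR adjusted p = 0.30) and DE minus E 0.95 ± 0.71 (adjusted p = 0.62), and neither passed the threshold of an adjusted p of 0.05.

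Inhbb, the other beta subunit gene, moved in the same direction over a smaller range. In experiment 1 it was at 718, 729 and 257 CPM in WT, at 830.3, 555 and 465 CPM in Fshb(+/-), and at 63.5, 74.5 and 44.3 CPM in Fshb(-/-). The Fshb(-/-) libraries were below all others, and WT replicate 3, which also had the lowest summed luteal markers of the WT libraries, was the lowest of the remaining 6. The log2 fold change of Fshb(-/-) against WT was -3.22 ± 0.44 (SE, edgeR adjusted p = 0.0054), with means of 60.8 ± 15.3 and 568 ± 269 CPM (SD, n = 3 each).

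In experiment 2 Inhbb was at 46.8, 35.9, 65.7 and 69.7 CPM in the libraries labelled Fshb(-/-) and at 370.5, 389, 387 and 468 CPM in the rescue. The rescue was 7.40-fold higher with no overlap (log2 2.89 ± 0.22, SE, edgeR adjusted p = 9.4e-05). In experiment 3 it was at 23.2 to 49.1 CPM in KO (anestrus), at 329, 417, 805 and 310.3 CPM in DE, at 770.4, 264, 432 and 204 CPM in PE, and at 371, 500.4, 355 and 274 CPM in E. All 12 staged libraries lay above KO (anestrus), by 3.62 ± 0.44 in DE (edgeR adjusted p = 0.00016), 3.46 ± 0.44 in PE (adjusted p = 0.00016) and 3.31 ± 0.44 in E (adjusted p = 0.00022) on the log2 scale.

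Inha, the alpha subunit shared by both inhibins, did not share the large step of the beta subunits between libraries labelled KO and the others. In experiment 1 it was at 1944, 2870.3 and 2782 CPM in WT, at 1668, 1323 and 1393 CPM in Fshb(+/-) and at 2062, 2794 and 2271 CPM in Fshb(-/-). WT and Fshb(-/-) overlapped (log2 -0.09 ± 0.19, SE, edgeR adjusted p = 0.81), while every Fshb(+/-) library lay below both groups, as did its summed granulosa markers and its summed theca and interstitial markers given above. The part of cell makeup in this difference was not tested. In the rescue it was 1327 ± 249 CPM against 1054 ± 115 CPM in Fshb(-/-) (SD, n = 4 each), a log2 difference of 0.33 ± 0.14 (SE) that missed the threshold with edgeR (adjusted p = 0.096) and passed it with DESeq2 (adjusted p = 0.044) and without rescue replicate 3 (edgeR adjusted p = 0.029). In experiment 3 the group means were 865 CPM in KO (anestrus), 941 in DE, 916 in PE and 888 in E. The staged libraries ran from 613 to 1462 CPM, around the 693 to 961 CPM of KO (anestrus), and the adjusted p was 0.79 or more in each of the 3 contrasts (edgeR).

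Between Fshb(+/-) and WT, 2 of the inhibin subunit genes were called by 1 tool only. The groups did not overlap in Inha. In Inhba they did, with 497.8 CPM in Fshb(+/-) replicate 2 and 497.4 CPM in WT replicate 3. Inha differed from WT by -0.79 ± 0.19 on the log2 scale (SE, edgeR adjusted p = 0.20, DESeq2 adjusted p = 0.0034). Inhba differed by -0.98 ± 0.31 (edgeR adjusted p = 0.35, DESeq2 adjusted p = 0.045), and Inhbb by 0.12 ± 0.40 (edgeR adjusted p = 0.95). Against Fshb(+/-), Fshb(-/-) had lower Inhba (-3.44 ± 0.33, edgeR adjusted p = 0.00061) and Inhbb (-3.34 ± 0.44, adjusted p = 0.0025) and higher Inha (0.70 ± 0.19, adjusted p = 0.033). The Inha call was lost when any 1 of the 6 libraries except Fshb(+/-) replicate 1 was left out (adjusted p 0.054 to 0.097).

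**Figure D1:**
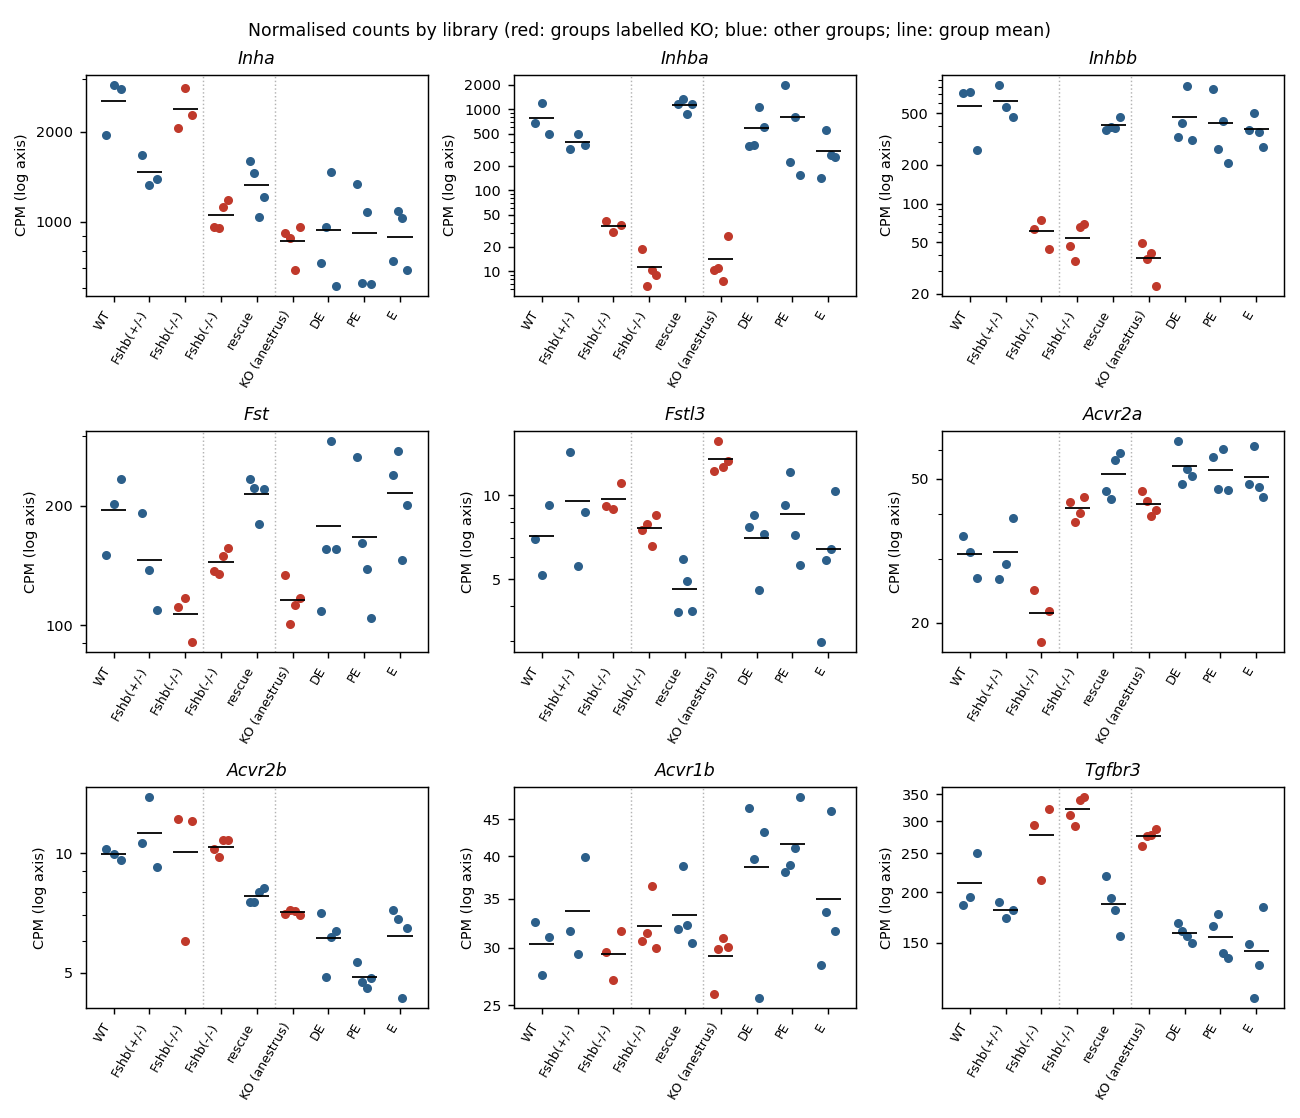
Level of each of the 9 genes in every library, in CPM on a log axis, with 1 panel per gene, points for libraries, horizontal lines for group means and dotted lines between the 3 experiments. Inhba and Inhbb are lower in every library labelled KO (red) than in any other library (blue) of the same experiment, with Inhba at 6.67 to 41.4 CPM against 142 to 2017 CPM over all 3 experiments, while Inha overlaps between red and blue.

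Because the subunits pair with each other in the protein, their levels were also set against each other within each library, per kb of exon (1.475 kb for Inha, 6.39 kb for Inhba, 4.255 kb for Inhbb). The ratio of Inha to the sum of the beta subunits was 65.3, 85.0 and 94.6 in Fshb(-/-) of experiment 1 against 4.82, 5.46 and 13.6 in WT and 4.30 to 5.68 in Fshb(+/-). It was 44.4 to 68.2 in Fshb(-/-) of experiment 2 against 2.83 to 4.06 in the rescue, and 43.0 to 67.2 in KO (anestrus) against 1.82 to 5.83 over the stages. The excess of alpha over beta transcript was thus larger in each library labelled KO than in any other library. The log2 difference was 3.51 for Fshb(-/-) minus WT (exact permutation p = 0.10, the smallest that 3 against 3 allows), -3.93 for the rescue minus Fshb(-/-) and -3.55 to -4.03 for the stages minus KO (anestrus) (exact permutation p = 0.0286 each, two-sided, the smallest that 4 against 4 allows). Adjusted over the 30 ratio comparisons, no p fell below 0.0857.

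Inhba and Inhbb, which give the A and B forms of the hormones, were also set against each other. In the rescue, Inhba per kb was 1.503 to 2.31 times Inhbb, and in the libraries labelled Fshb(-/-) of experiment 2 it was 0.0855 to 0.271 times (log2 difference 3.81, exact permutation p = 0.0286, adjusted 0.0857). In experiment 1 the ratio was 0.62, 1.08 and 1.29 in WT, 0.261 to 0.597 in Fshb(+/-) and 0.272 to 0.562 in Fshb(-/-), so that Fshb(+/-) and Fshb(-/-) overlapped and both lay below WT (exact permutation p = 0.10 each, adjusted 0.16). In KO (anestrus) it was 0.123 to 0.197 in 3 libraries and 0.778 in replicate 4, so that the range of the group crossed that of each stage.

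The step in Inhba from Fshb(-/-) to the rescue was compared with the step from Fshb(-/-) to WT in 1 fit over experiments 1 and 2. The first was larger by 2.22 ± 0.47 on the log2 scale (SE), which missed the threshold with edgeR (adjusted p = 0.11) and passed it with DESeq2 (adjusted p = 0.00034). It also passed with edgeR without WT replicate 2 (adjusted p = 0.037) or without Fshb(-/-) replicate 1 of experiment 2 (adjusted p = 0.017). None of the 9 genes was called in this contrast with edgeR, in which 0.0493% of 18255 genes were higher and 0.104% lower. The experiments and the steps cannot be told apart, since each step was measured in 1 experiment.

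Fst, the main activin-binding protein, was lower in the libraries labelled KO of experiments 1 and 2, by less than the beta subunits. In experiment 1 it was at 150.0, 202 and 234 CPM in WT, 192, 138 and 109 CPM in Fshb(+/-), and 111, 117 and 90.7 CPM in Fshb(-/-). WT and Fshb(-/-) did not overlap, with a log2 fold change of -0.88 ± 0.23 (SE, edgeR adjusted p = 0.049). Leaving out any 1 of the 6 libraries ended that call (adjusted p 0.054 to 0.16). In experiment 2 Fst was at 137, 134, 149 and 156 CPM in Fshb(-/-) and at 233, 221, 179 and 221 CPM in the rescue, a non-overlapping rise of 0.57 ± 0.09 on the log2 scale (SE, edgeR adjusted p = 0.0013).

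In experiment 3 Fst was at 101 to 134 CPM in KO (anestrus), 109 to 291 CPM in DE, 104 to 265 CPM in PE and 146 to 274 CPM in E. DE and PE overlapped with KO (anestrus). DE differed from it by 0.62 ± 0.31 on the log2 scale (SE, edgeR adjusted p = 0.15), 0.31 without DE replicate 3 and E replicate 3, and 1.36 with only the oviduct-poor libraries (1 DE library), none of them called (adjusted p 0.070 to 0.39 over the alternatives). E lay above KO (anestrus), by 0.89 ± 0.31 on the log2 scale (SE, edgeR adjusted p = 0.060, DESeq2 adjusted p = 0.018). E replicate 3, the E library rich in oviduct markers, was the lowest of E at 146 CPM, and without it the difference was called (1.08 ± 0.31, edgeR adjusted p = 0.030). The 4 oviduct-poor staged libraries had 200.3 to 291 CPM of Fst and the 8 oviduct-rich ones 104 to 265 CPM. The part of oviduct tissue in this difference was not tested.

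Fstl3, the second activin-binding protein, was higher in the libraries labelled KO of experiments 2 and 3, at a level of 2.98 to 15.7 CPM in all. In experiment 2 it was at 7.53, 7.91, 6.56 and 8.47 CPM in Fshb(-/-) and 3.82, 5.89, 4.93 and 3.84 CPM in the rescue (log2 -0.72 ± 0.17, SE, edgeR adjusted p = 0.013), with no overlap. In the stage experiment it was at 12.2, 15.7, 12.7 and 13.3 CPM in KO (anestrus), above all 12 staged libraries (2.98 to 12.1 CPM). The difference was -0.94 ± 0.32 in DE (edgeR adjusted p = 0.044), -0.65 ± 0.32 in PE (adjusted p = 0.12) and -1.07 ± 0.32 in E (adjusted p = 0.032). The DE call was lost when any 1 of the 8 libraries was left out (adjusted p 0.055 to 0.10), and the E call when any 1 but E replicate 4 was (0.059 to 0.080). Without DE replicate 3 and E replicate 3 the difference in DE was -0.74 ± 0.33 (adjusted p = 0.096). With only the oviduct-poor libraries the differences were -1.52 ± 0.56 in DE (adjusted p = 0.21, 1 DE library) and -1.04 ± 0.35 in E (adjusted p = 0.054). In experiment 1 Fshb(-/-) and WT overlapped (log2 0.45 ± 0.33, edgeR adjusted p = 0.44). Fstl3 shares 1157 exon bases with Prss57 on the opposite strand, which had 0 to 6 counts per library.

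The summed binding proteins per kb were 1.31 to 3.43 times the summed beta subunits in the libraries labelled KO and 0.124 to 0.487 times in all others. Per kb, binding protein transcript thus exceeded beta subunit transcript in each of the 11 libraries labelled KO and in none of the other 22. The log2 difference was 2.86 for Fshb(-/-) minus WT (exact permutation p = 0.10, adjusted 0.16) and -3.77 for the rescue minus Fshb(-/-) (exact permutation p = 0.0286, adjusted 0.0857). Among the stages, the ratio was 0.184 to 0.241 in DE and 0.272 to 0.487 in E, without overlap (log2 -0.80, exact permutation p = 0.0286, adjusted 0.0857), and 0.124 to 0.411 in PE, across both.

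**Figure D2:**
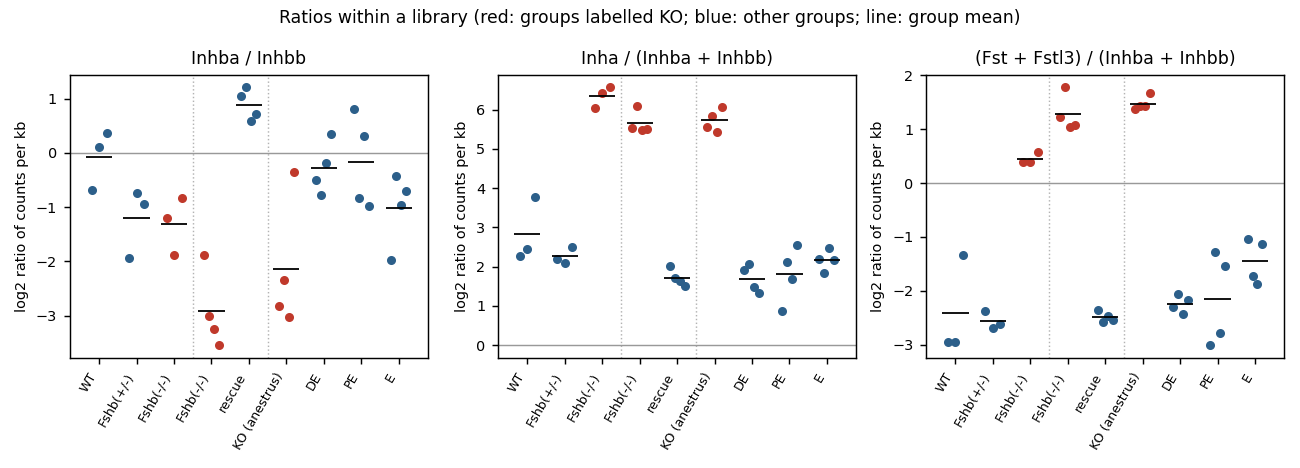
Log2 ratios within each library of levels per kb of exon, for Inhba to Inhbb (left), Inha to both beta subunits (middle) and both binding proteins to both beta subunits (right), with points for libraries, lines for group means and dotted lines between experiments. In the middle and right panels the libraries labelled KO (red) lie above all others (blue), whereas in the left panel red and blue overlap in experiments 1 and 3.

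The type II receptor gene Acvr2a changed little. In experiment 2 it was at 43.2, 38.01, 40.1 and 44.4 CPM in Fshb(-/-) and 46.3, 43.98, 56.1 and 58.9 CPM in the rescue (log2 0.31 ± 0.10, SE, edgeR adjusted p = 0.043). The groups overlapped by 1 library each, and leaving out any 1 of 6 libraries (each Fshb(-/-) library, rescue replicates 3 and 4) ended the call (adjusted p 0.060 to 0.12). The stage experiment had it at 39.3 to 46.2 CPM in KO (anestrus), 48.3 to 63.5 in DE, 46.6 to 60.5 in PE and 44.4 to 61.7 in E. All DE and PE libraries lay above KO (anestrus). DE passed the threshold (0.35 ± 0.12, edgeR adjusted p = 0.049), and PE missed it (0.32 ± 0.12, adjusted p = 0.058). For DE, 5 of 8 libraries (DE replicates 1 and 4, KO (anestrus) replicates 2, 3 and 4) each ended the call when left out (adjusted p 0.068 to 0.13), as did keeping only the oviduct-poor libraries (0.36 ± 0.19, adjusted p = 0.42, 1 DE library). PE became called without KO (anestrus) replicate 1, PE replicate 2 or PE replicate 4 (adjusted p 0.045 to 0.048), with a mean CPM of at least 1 (0.041) and with only the groups compared in the fit (0.030). Whether DE differed from the other stages here was tested directly and no difference was called (edgeR adjusted p = 0.78 or more).

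In experiment 1 Acvr2a was at 34.8, 31.4 and 26.7 CPM in WT and 24.7, 17.7 and 21.6 CPM in Fshb(-/-), which did not overlap but missed the threshold (log2 -0.54 ± 0.18, SE, edgeR adjusted p = 0.11). The difference from Fshb(+/-) was of the same size (-0.56 ± 0.18, edgeR adjusted p = 0.066) and passed with DESeq2 (adjusted p = 0.034) and without Fshb(+/-) replicate 1 (edgeR adjusted p = 0.049). Acvr2a shares 446 exon bases with Orc4 on the opposite strand, which had 364 to 1189 counts per library, and the strand setting of the counting is not given in the sources used here.

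Acvr2b, the other type II receptor, was the lowest receptor gene per kb in each of the 9 groups. In experiment 2 it was at 10.2, 9.77, 10.8 and 10.8 CPM in Fshb(-/-) and 7.55, 7.54, 7.98 and 8.19 CPM in the rescue, a small fall with tight replicates and no overlap (log2 -0.41 ± 0.09, SE, edgeR adjusted p = 0.0098). In experiment 3 it was at 6.98 to 7.19 CPM in KO (anestrus) and 4.59 to 5.31 CPM in PE (-0.54 ± 0.17, edgeR adjusted p = 0.026), a call that ended when any 1 of the 8 libraries was left out (adjusted p 0.052 to 0.086). DE had 4.88 to 7.06 CPM and E 4.32 to 7.19 CPM, and both overlapped with KO (anestrus) (edgeR adjusted p = 0.38 and 0.45). E minus PE was 0.35 ± 0.17 (edgeR adjusted p = 0.28), and with only the oviduct-poor libraries of DE and E it was called (0.51 ± 0.14, adjusted p = 0.029). In experiment 1 no contrast was called, and Fshb(-/-) replicate 2 was low at 6.01 CPM beside 12.2 and 12.05 CPM.

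Acvr1b, the type I receptor of activin, had the narrowest range of the 9 genes, 1.89-fold over 33 libraries. It differed by -0.04 ± 0.14 between Fshb(-/-) and WT and by 0.05 ± 0.09 between the rescue and Fshb(-/-) on the log2 scale (SE, edgeR adjusted p = 0.88 and 0.70). In experiment 3 it was at 25.9 to 30.9 CPM in KO (anestrus) and 38.1 to 48.3 CPM in PE (0.51 ± 0.17, edgeR adjusted p = 0.036). That call ended when KO (anestrus) replicate 1, 2, 3 or 4 or PE replicate 4 was left out (adjusted p 0.053 to 0.099).

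Acvr1b was also the only member whose staged libraries separated by oviduct markers without overlap. It was at 38.1 to 48.3 CPM in the 8 oviduct-rich libraries and 25.6 to 33.6 CPM in the 4 oviduct-poor ones, across stages. The single rich library of E had 46.2 CPM beside 28.4 to 33.6 CPM in the rest of E, and the single poor library of DE had 25.6 CPM beside 39.7 to 46.5 CPM. In experiment 1, Fshb(+/-) replicate 3, with 1549 CPM of oviduct markers, had 39.9 CPM of Acvr1b beside 29.4 and 31.6 CPM. In experiment 2, rescue replicate 2 and Fshb(-/-) replicate 3 were the highest of their groups in oviduct markers and in Acvr1b, at 38.8 beside 30.4 to 32.2 CPM and 36.4 beside 29.9 to 31.4 CPM. Without DE replicate 3 and E replicate 3, Acvr1b was higher in DE than in KO (anestrus) (0.61 ± 0.10, edgeR adjusted p = 0.00054), lower in E than in PE (-0.42 ± 0.11, adjusted p = 0.015) and higher in DE than in E (0.47 ± 0.11, adjusted p = 0.011). This pair was chosen after the data were seen, and its removal left only oviduct-rich libraries in DE and only oviduct-poor ones in E. The split of Acvr1b above thus fixed the direction between stages beforehand. In each of these contrasts the oviduct-rich group was the higher one in Acvr1b. With only the oviduct-poor libraries of DE and E, it was higher in PE than in DE (0.68 ± 0.16, adjusted p = 0.021) and lower in E than in PE (-0.39 ± 0.11, adjusted p = 0.023). Stage and oviduct markers cannot be told apart in PE, whose 4 libraries were all rich. Summed smooth muscle markers (4 genes) split the staged libraries in the same way. They were at 1742 to 3806 CPM in the oviduct-rich libraries and 767 to 1535 CPM in the oviduct-poor ones. Fshb(+/-) replicate 3 (3213 CPM), rescue replicate 2 (1149 CPM) and Fshb(-/-) replicate 3 of experiment 2 (1003 CPM) were the highest of their groups in these too. In experiment 2, rescue replicate 1 (1066 CPM) and Fshb(-/-) replicate 4 (998 CPM) came close, with Acvr1b in the lower ranges given above. The 2 kinds of marker cannot be told apart here, and the part of either in the Acvr1b levels was not tested.

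**Figure D3:**
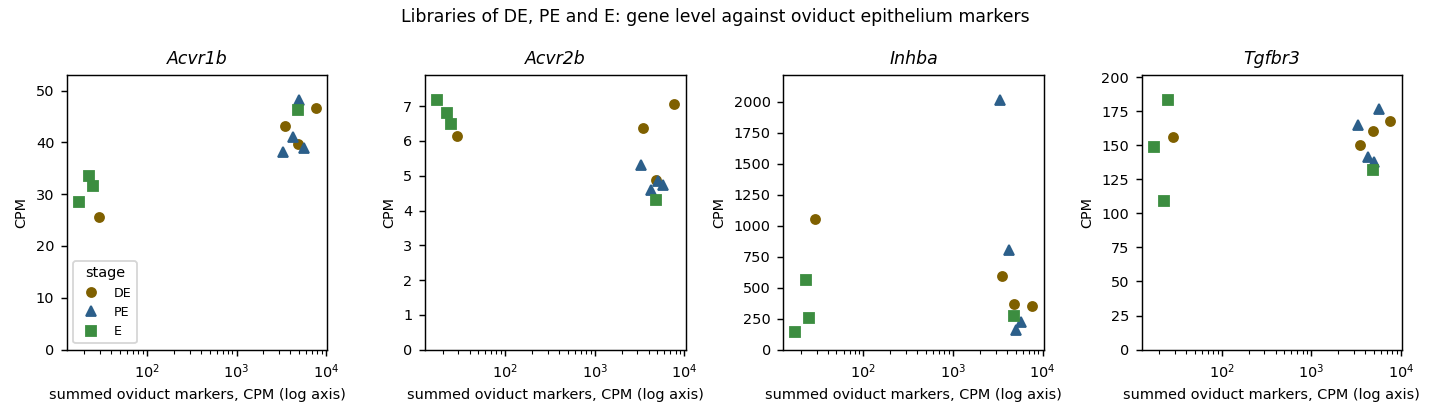
Level of Acvr1b, Acvr2b, Inhba and Tgfbr3 (CPM, axes from 0) in the 12 libraries of DE, PE and E against the summed CPM of 9 oviduct epithelium markers (log axis), with 1 point per library and a marker shape per stage. Acvr1b lies at 38.1 CPM or more in the 8 libraries at the right and at 33.6 CPM or less in the 4 at the left, and the other 3 genes overlap between the sides.

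Tgfbr3 (betaglycan) was higher in the libraries labelled KO of experiments 2 and 3. In experiment 2 it was at 311, 292, 339.7 and 345 CPM in Fshb(-/-) and 219, 194, 181 and 156 CPM in the rescue (log2 -0.78 ± 0.10, SE, edgeR adjusted p = 0.00062). Experiment 3 had it at 260.4, 275, 278 and 288 CPM in KO (anestrus) and 109 to 183 CPM over the 12 staged libraries. No library of either experiment lay in the other group's range. Summed theca and interstitial markers separated the same groups, at 4848 to 5506 CPM in Fshb(-/-) against 3299 to 4544 CPM in the rescue. In experiment 3 they were at 4210.1 to 5468 CPM in KO (anestrus) against 1919 to 4112 CPM over the stages. Summed oocyte, luteal and endothelium markers separated these groups too, the oocyte sum higher and the other sums lower in the libraries labelled KO. In experiment 1, theca and interstitial markers were at 4332 to 4859 CPM in Fshb(-/-) and 3225 to 4288 CPM in WT, a narrow gap. Tgfbr3 was at 215 to 322 CPM in Fshb(-/-) and 186 to 251 CPM in WT there. The part of any of these markers in the Tgfbr3 difference was not tested. The stages differed from KO (anestrus) by -0.80 ± 0.13 in DE (edgeR adjusted p = 0.00089), -0.83 ± 0.13 in PE (adjusted p = 0.00057) and -0.94 ± 0.13 in E (adjusted p = 0.00023). With DE replicate 3 as the only DE library, the difference in DE was of the same size and no longer called (-0.79 ± 0.22, edgeR adjusted p = 0.089).

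In experiment 1 Tgfbr3 was at 186, 195 and 251 CPM in WT, 189, 173 and 181 CPM in Fshb(+/-) and 294, 215 and 322 CPM in Fshb(-/-). WT and Fshb(-/-) overlapped (log2 0.39 ± 0.17, SE, edgeR adjusted p = 0.18). Fshb(+/-) and Fshb(-/-) did not (0.62 ± 0.17, edgeR adjusted p = 0.036), but that call was lost when any 1 of the 6 libraries except Fshb(-/-) replicate 2 was left out (adjusted p 0.059 to 0.12). The difference between the rescue step and the WT step was -0.39 ± 0.20 (edgeR adjusted p = 0.78) and was not called.

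Per kb of exon, Inha had the highest mean level of the 9 genes in all 9 groups, from 586 ± 80.4 in KO (anestrus) to 1717 ± 347 CPM per kb in WT of experiment 1 (SD). Inhba and Inhbb came next in the libraries labelled WT, at 122 ± 55.7 and 134 ± 63.3 CPM per kb (SD, n = 3), which do not differ beyond their spread. In Fshb(-/-) of experiment 1 both stood below Tgfbr3 (42.3 ± 8.49) and Fst (23.2 ± 3.04), Inhbb at 14.3 ± 3.59 and Inhba at 5.70 ± 0.87 CPM per kb. Acvr1b (6.66 ± 0.51), Fstl3 (3.97 ± 0.48), Acvr2a (3.75 ± 0.61) and Acvr2b (2.57 ± 0.90) made up the rest, and the levels of Fstl3 and Acvr2a there were within their spread of each other. Levels of different experiments are set side by side here and were not tested.

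Counts over the 9 genes were read against all genes tested. The 9 were chosen with earlier results of these data known, so the counts are a description. In Fshb(-/-) minus WT, 3 of 9 were lower and 0 higher, where 3.34% of 17223 genes were lower and 4.53% higher. In Fshb(+/-) minus WT, 0 of 9 were called, where 0.0871% were higher and 0.0% lower, with 1783 genes at an unadjusted p under 0.05 and 2 members called by DESeq2. In Fshb(-/-) minus Fshb(+/-), 2 were higher and 2 lower, where 9.1% and 7.9% of genes were. In the rescue minus Fshb(-/-), 4 were higher and 3 lower, where 15.8% and 16.2% of 16871 genes were.

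In experiment 3 (16944 genes tested), 3 members were higher and 2 lower in DE than in KO (anestrus), where 13.5% and 11.6% of genes were. The counts were 3 and 2 in PE (17.5% and 16.3% of genes) and 2 and 2 in E (8.98% and 8.98%). Between the stages no gene was called, higher or lower (0.0% and 0.0% in PE minus DE, in E minus PE and in DE minus E, edgeR), with 407, 3170 and 1797 genes at an unadjusted p under 0.05 and 0, 363 and 10 genes called by DESeq2. The median log2 change over the 9 members was -0.09 in Fshb(-/-) minus WT, 0.31 in the rescue minus Fshb(-/-), and 0.35, 0.32 and 0.25 in DE, PE and E, where the median of all genes lay between -0.01 and 0.01. The members had both signs, 3 positive and 6 negative in Fshb(-/-) minus WT and 6 positive and 3 negative in the rescue, DE, PE and E contrasts. Inhba and Inhbb, lower in each library group labelled KO, stood beside Tgfbr3 and Fstl3, which were higher there in experiments 2 and 3.

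**Figure D4:**
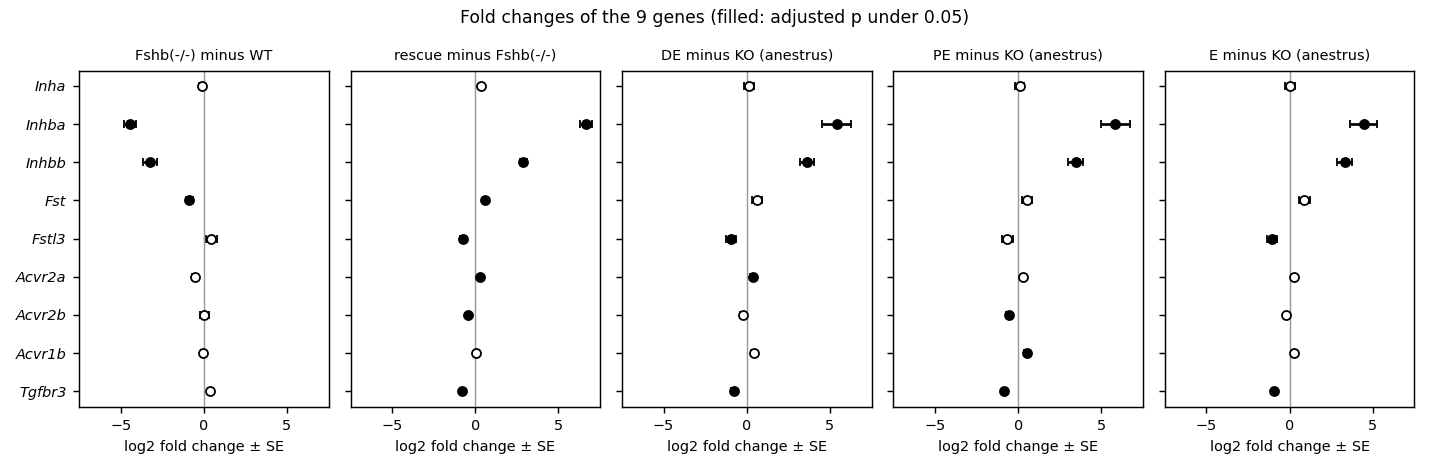
Log2 fold changes of the 9 genes in 5 contrasts, with points for edgeR estimates, bars for 1 SE and filled points for an adjusted p under 0.05. Inhba and Inhbb lie far from 0 in all 5 panels, from -4.42 to 6.65 for Inhba, and the remaining 7 genes lie within about 1 log2 unit of 0.

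The wider pathway was described by a list of 54 genes: further ligands, receptors, binding proteins, SMAD proteins and their regulators, and proteases. They were chosen with earlier results of these data known, so their counts are a description. Of these 53 had a row and 44 or 45 were tested in an experiment. Against WT, Fshb(-/-) had 6 higher and 2 lower of 44, where 4.53% and 3.34% of all genes were. The 2 oocyte ligand genes Bmp15 (60.4 ± 8.18 against 34.2 ± 2.95 CPM, SD, n = 3, edgeR adjusted p = 0.011) and Gdf9 (147 ± 10.6 against 84.1 ± 12.3 CPM, adjusted p = 0.036) were higher, beside the rise of the summed oocyte markers given above. Both genes are on that marker list. Tgfbr1 and Tgfbr2, the TGF-beta receptors, were lower (log2 -1.15 ± 0.20 and -0.62 ± 0.12, SE, edgeR adjusted p = 0.012 and 0.016), while the type I receptor Acvr1 (0.55 ± 0.12, adjusted p = 0.030) and the secreted protease Htra3 (1.14 ± 0.21, adjusted p = 0.015) were higher.

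Against Fshb(+/-), Fshb(-/-) had 7 higher and 4 lower of 44, where 9.1% and 7.9% of all genes were, so that the lower count was near the share over all genes. Bmp15, Gdf9 and Acvr1 were among the higher and Tgfbr2 among the lower. Higher too were Tdgf1, a co-receptor of nodal, at 8.04 ± 1.28 against 1.19 ± 0.65 CPM (SD, n = 3, edgeR adjusted p = 0.0064), and the receptor Bmpr1b, at 176 ± 28.7 against 77.2 ± 9.55 CPM (adjusted p = 0.0066). Fshb(+/-) against WT had 0 and 0 of 44.

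In the rescue 13 of 45 pathway genes were higher and 9 lower than in Fshb(-/-), where 15.8% and 16.2% of all genes were, and the lower count was close to that share. Wfikkn2, a secreted inhibitor of related ligands, fell from 16.3 ± 0.87 to 4.25 ± 1.09 CPM (SD, n = 4, edgeR adjusted p = 6.3e-05). The protease Pcsk6 fell by 0.92 ± 0.10 on the log2 scale (edgeR adjusted p = 0.00021) and Htra3 by 1.29 ± 0.16 (adjusted p = 0.00072). The endothelial type I receptor Acvrl1 (1.07 ± 0.09, edgeR adjusted p = 6.7e-05), the ligand Bmp2 (1.12 ± 0.12, adjusted p = 0.00026) and Smad9 (0.56 ± 0.08, adjusted p = 0.0010) rose. Summed endothelium markers were at 352 to 501 CPM in the rescue and 284 to 317 CPM in Fshb(-/-), and their part in the Acvrl1 change was not tested.

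In experiment 3 the pathway list had 3 higher and 12 lower of 45 in DE against KO (anestrus), 2 and 14 in PE, and 2 and 9 in E. Over all genes the shares higher and lower were 13.5% and 11.6% in DE, 17.5% and 16.3% in PE, and 8.98% and 8.98% in E. At most 6 called genes, those with the smallest adjusted p, are named per stage. A gene not named for a stage may still have been called there. Gdf9 (162.7 ± 2.62 CPM in KO (anestrus), 56.6 ± 32.1 in DE, 50.7 ± 10.7 in PE, SD, n = 4) and Bmp15 (96.8 ± 6.47, 35.2 ± 22.8 and 28.9 ± 4.38 CPM) were lower in DE and PE (edgeR adjusted p = 0.0079 or less), as all 11 oocyte markers were in both. Pcsk6 was lower in all 3 stages (edgeR adjusted p = 0.00078, 0.00044 and 0.016), and Htra3 and Wfikkn2 were lower in DE and in E (adjusted p = 0.012 or less). Bmpr1b was lower in PE and E (-0.89 ± 0.19 and -0.93 ± 0.19, SE, edgeR adjusted p = 0.0044 and 0.0048), and Tgfbr2 higher in DE and PE (0.74 ± 0.15 and 0.73 ± 0.15, adjusted p = 0.0043 and 0.0032). Smad4, the shared partner of the signalling SMAD proteins, fell by 0.35 ± 0.07 in PE (edgeR adjusted p = 0.0036). In E, Tgfb2 and the SMAD repressor gene Ski fell by 0.91 ± 0.18 and 0.36 ± 0.08 (adjusted p = 0.0037 and 0.0065). The median log2 change of the tested list genes was -0.21 in DE, -0.17 in PE and -0.09 in E.

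The genes whose pattern was most like each of 4 members were sought among 14216 genes, by Pearson's r of log2(CPM + 1) centred on the experiment over all 33 libraries. For Inhba they were Cyp19a1, the aromatase that makes estrogen in granulosa cells (r = 0.95, rho = 0.96), Paqr8 (r = 0.95) and Mgat4c (r = 0.94). For Inhbb they were Nap1l5 (r = 0.94), Inhba (r = 0.92) and Elf4 (r = 0.92). For Fst they were Nmt2 (r = 0.86), Ext1 (0.84) and Mgat4b (0.81), and for Inha St3gal4 (0.79), Chst8 (0.77) and Plod2 (0.72). The points share libraries and the step between libraries labelled KO and the rest, so r is a description.

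Over the 12 staged libraries alone, Inhba kept r = 0.91 with Cyp19a1 and 0.53 with Paqr8, and Inhbb had r = 0.86 with Nap1l5 and -0.09 with Elf4. Over the 11 libraries labelled KO, Inhba had r = 0.30 with Cyp19a1 and Inhbb r = -0.07 with Inhba. For Inha and St3gal4 the values were 0.90 in the staged and 0.80 in the KO libraries. The high values for Inhba thus held within the staged libraries for Cyp19a1 and were lower for Paqr8 and Mgat4c (0.61).

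Within the 12 staged libraries the 4 ligand and binding protein genes were compared pairwise (6 pairs, log2 CPM, permutation test with 100000 permutations, two-sided). Inha and Inhbb had r = 0.92 (permutation p = 2e-05, the smallest these permutations can give, adjusted 0.00012, rho = 0.94, p = 4e-05, adjusted 0.00024), r = 0.84 without the 2 libraries farthest from the median, and r = 0.93 centred on stage. Inhba and Inhbb had r = 0.83 (permutation p = 0.0012, adjusted 0.0037, rho = 0.74, p = 0.0079, adjusted 0.024), 0.61 without 2 libraries and 0.87 centred on stage. Inha and Inhba had r = 0.75 (permutation p = 0.0067, adjusted 0.011, rho = 0.63, p = 0.033, adjusted 0.058), 0.51 without 2 and 0.80 centred on stage.

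Inhbb and Fst had r = 0.73 (permutation p = 0.0075, adjusted 0.011, rho = 0.62, p = 0.039, adjusted 0.058), 0.52 without 2 libraries and 0.83 centred on stage. Inha and Fst had r = 0.58 (permutation p = 0.051, adjusted 0.061, rho = 0.57, p = 0.056, adjusted 0.068), 0.27 without 2 and 0.63 centred on stage. Inhba and Fst had r = 0.45 (permutation p = 0.14, adjusted 0.14, rho = 0.32, p = 0.31, adjusted 0.31), 0.034 without 2 and 0.69 centred on stage. In the 8 oviduct-rich libraries r was 0.89 for Inha and Inhbb (rho = 0.90), 0.91 for Inhba and Inhbb (0.83) and 0.69 for Inha and Inhba (0.57). With Fst it was 0.80 for Inhbb (rho = 0.40), 0.61 for Inha (0.31) and 0.76 for Inhba (0.43), lower by rank in each pair, and the 4 oviduct-poor libraries were too few for a value. Of the 6 pairs, Inha with Inhbb and Inhba with Inhbb passed an adjusted p of 0.05 by both measures, while Inha with Inhba and Inhbb with Fst passed by r only. Summed granulosa markers moved with the subunit genes in part. They were highest in DE replicate 3 (5698 CPM) and PE replicate 1 (4529 CPM), which also had the most Inha (1462 and 1336 CPM) and Inhbb (805 and 770.4 CPM). They were low in PE replicates 4 and 2 (2623 and 3013 CPM) and DE replicate 4 (3067 CPM), the 3 libraries with the least Inha (613 to 626 CPM), and lowest in DE replicate 1 (2434 CPM), with 729.6 CPM of Inha. E replicate 1 came next after PE replicate 1 in granulosa markers (4475 CPM), with 739.7 CPM of Inha and 371 CPM of Inhbb. It had 142 CPM of Inhba, the least of the staged libraries. The part of granulosa markers in these correlations was not tested.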

How the data were processed

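For the 33 libraries, the authors deposited 1 table of expected counts, estimated per gene. Tools named in the submitters' processing notes are Salmon and DESeq2, and the build is GRCm38, with no versions; the sources used here do not give annotation or strand setting. Counts were rounded and matched to GENCODE M21 (54094 of 54347 identifiers; the 253 others held 0.0055% of counts). Each experiment was fitted with edgeR 4.0.16 (TMM, filterByExpr, robust quasi-likelihood), adjusted over all genes tested. Within-library ratios used exact permutation tests. SE is the log2 fold change divided by the root of the F statistic. Named genes are the 9 members, up to 6 called pathway genes with the smallest adjusted p per contrast, the 3 genes most like each of 4 members, Fshb and marker summaries. Members and lists were chosen with earlier results of these data known. Alternatives were DESeq2 1.42.0, median-of-ratios factors, other filters, only the groups compared, a replicate block and leaving out libraries. Replicate libraries all differed beyond counting noise (chi-square over its degrees of freedom, 5.34 to 67.7). On simulated data, 87%, 92% and 89% of genes changed 4-fold were recovered in experiments 1 (17223 genes), 2 (16871) and 3 (16944), and 53%, 67% and 48% of those changed 2-fold. The simulated spread followed the trend over all genes, with no spread particular to a gene and no oviduct share in any library. Recovery in the real libraries may differ.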

Additional observations from a re-analysis of the deposited data

Results flagged for a closer look

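The log2 ratio of Inha to the summed beta subunits per kb was 6.09 in Fshb(-/-) replicate 2 of experiment 2 and 5.47 to 5.54 in the other 3 libraries of that group, a gap large enough to set it apart from them. It had the lowest Inhba (6.67 CPM) and Inhbb (35.9 CPM) of its group. Fshb had 114 counts in KO (anestrus) replicate 2 and 90 to 93 in the other 3. Of 78 groups of values examined in this way, chance flags about 1 in 20.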

How the results depend on the processing

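No called value changed direction. Of the 99 gene results, median-of-ratios factors changed 0 calls, DESeq2 added 6, omitting the filter removed 4, a mean CPM of at least 1 added 2 and removed 1, and fitting only the groups compared added 3. Replicate numbers did not pair the libraries (median correlation of same-numbered deviations -0.03, -0.07 and -0.01 in experiments 1, 2 and 3). The replicate block removed 5 calls and left 3 members called in DE minus KO (anestrus), 7 genes in Fshb(+/-) minus WT and 15 in the contrast of steps. DESeq2 called 2379 genes in Fshb(-/-) minus WT, 363 genes and 2 members in Fshb(+/-) minus WT, 363 genes in E minus PE, 10 in DE minus E, and 135 genes and 1 member in the contrast of steps. Without a filter, 3 members were called in DE minus KO (anestrus).

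Leaving out 1 library at a time gave 456 to 1030 genes and 2 members in Fshb(-/-) minus WT, 9 to 14 genes in Fshb(+/-) minus WT, 1362 to 2581 genes and 2 to 4 members in Fshb(-/-) minus Fshb(+/-), 3935 to 5612 genes and 6 to 7 members in the rescue, 2422 to 5787 genes and 3 to 5 members in DE minus KO (anestrus), 3931 to 5000 genes and 3 to 5 members in PE minus KO (anestrus), 1920 to 2779 genes and 3 to 4 members in E minus KO (anestrus), 0 to 1847 genes in E minus PE, 0 to 1039 in DE minus E, and 18 to 30 genes and 0 to 1 members in the contrast of steps.

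After the data were seen, 2 alternatives were added. Without DE replicate 3 and E replicate 3, 6143 genes were called in DE minus KO (anestrus), 3546 in E minus KO (anestrus), 2656 genes and 1 member were called in E minus PE, and 2750 genes and 1 member in DE minus E. With only the oviduct-poor libraries of DE and E, where the lone DE library is assumed to vary like the other groups, the counts were 548 genes and 2 members in DE minus KO (anestrus), 1632 and 1 in PE minus DE, and 3299 and 2 in E minus PE. The cause was not tested. Inhba and Inhbb stayed called in all alternatives of the contrasts with a group labelled KO. No ratio passed the threshold under an alternative, and with 3 or 4 libraries a group few could. Fstl3 and Acvr2b, the lowest genes, are limited by depth, with 34 and 50 counts in their lowest libraries.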
